A study of Ogataea parapolymorpha DL-1 with 4 samples.

Results

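The genes pyroA (HPODL_04092, pyridoxine synthesis), sti35 (HPODL_03615, thiazole synthesis) and THI72 (HPODL_04535, thiamine uptake) are 3 of the 5448 rows of a transcriptome table of the methylotrophic yeast Ogataea parapolymorpha DL-1. They were chosen by locus tag, with their FPKM values in the 4 libraries already known, so those values are given below as a description. FPKM counts fragments relative to transcript length and to the size of the library. Each library came from 1 culture. The met4 mutant (leu2 met4::LEU2) was sampled in B medium, which is limited in sulfur, and in B medium with 0.5 mM cysteine. The wild type (leu2 [LEU2]) was sampled in the same media, so both strains carry the leu2 allele and a LEU2 gene. All cultures had been started in rich YPD broth at an OD600 of 0.1 and were moved to these media at 0.3, and RNA was taken 2 h later. The labels do not say which vitamins B medium holds. With 1 library per group there is no spread between replicates, so no test was made and no value below carries an error. A model of strain plus medium, whose error would be the difference of the 2 responses, was not fitted.

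Pyridoxal phosphate, the active form of vitamin B6, is the cofactor of transaminases and of the enzymes that interconvert homocysteine, cystathionine and cysteine. In fungi it is made by a complex of a synthase (pyroA of Aspergillus nidulans, SNZ1 of budding yeast) with a glutaminase (SNO1) that supplies ammonia from glutamine. Thiamine is assembled from a thiazole and a pyrimidine, and it contains sulfur. In budding yeast the thiazole synthase Thi4, the counterpart of sti35, gives up the sulfur of one of its own cysteines in the reaction. The pyrimidine is made there by the Thi5 family, which contains Thi13, from pyridoxal phosphate and histidine, so that thiamine synthesis draws on both vitamin B6 and sulfur.

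The 3 members lie on different chromosomes, and the reference gene table of assembly Hansenula_2 gives each the same position as the deposited table. The pyroA row is a coding gene of 921 bases on the minus strand of chromosome V (586339 to 587259). The sti35 row spans 915 bases on the plus strand of chromosome IV (1038750 to 1039664). The THI72 row spans 1632 bases on the plus strand of chromosome II (23597 to 25228). Names and products are those of the deposited table, taken there from the most similar described protein. The table holds further rows of the same pathways, and 6 rows for thiamine synthesis, 3 for thiamine transport and 9 for the synthesis, salvage and uptake of vitamin B6 were set beside the members, which are among these 18.

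Rows averaging at least 1 FPKM were compared, 5342 in all, and the 18 pathway rows are among them. Differences are between values of log2(FPKM + 1), and a difference of at least 2-fold on that scale was counted. Median FPKM over the compared rows was 64.0 and 64.5 in the mutant (B medium and B with cysteine) and 78.0 and 68.5 in the wild type. The sums of FPKM were less even, at 1407390 and 1329360 in the mutant and 3217250 and 2314440 in the wild type, with 24.5% and 19.4% against 56.2% and 48.2% of the sum in rows under 400 bases. The median difference of all compared rows was not 0 either. For the mutant against the wild type it was -0.27 in B medium and -0.10 with cysteine, and scaling each library to the same sum (TPM) moved these 2 medians up by 1.14 and 0.76. The medians for the media were 0.04 in the mutant and 0.19 in the wild type, and TPM scaling moved them by -0.08 and -0.44. The zip1 row, which is read as the Met4 counterpart, and its neighbour HPODL_05198 are both listed at 0 in both mutant libraries. A strain difference can therefore not be assigned to one of these 2 rows.

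pyroA was high in 1 library, that of the mutant in B medium. It had 1694 FPKM there, 117 in the mutant with cysteine, and 85.2 and 49.8 in the wild type without and with cysteine. The mutant in B medium thus had 14.4 times the FPKM of the mutant with cysteine and 19.9 times that of the wild type in B medium. In level per length, pyroA stood at percentile 97.7 of the compared rows in the mutant in B medium, at 67.7 in the mutant with cysteine, and at 53.1 and 40.6 in the wild type without and with cysteine. The log2 difference between the media was 3.84 in the mutant and 0.76 in the wild type. The first of these was the 9th highest of all 5342 rows, among which 13.3% were at least 2-fold higher in the mutant. Between the strains, the log2 difference was 4.30 in B medium, the 18th highest, and 1.22 with cysteine. At least 2-fold higher values in the mutant were found in 10.5% of rows in B medium and 6.85% with cysteine. The response of the mutant minus that of the wild type was 3.08, where 11.2% of rows were at least 2-fold higher. These comparisons share libraries, and the single high value enters 3 of the 5. No setting tried turned the sign of a pyroA difference or took one across the 2-fold mark.

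**Figure D1:**
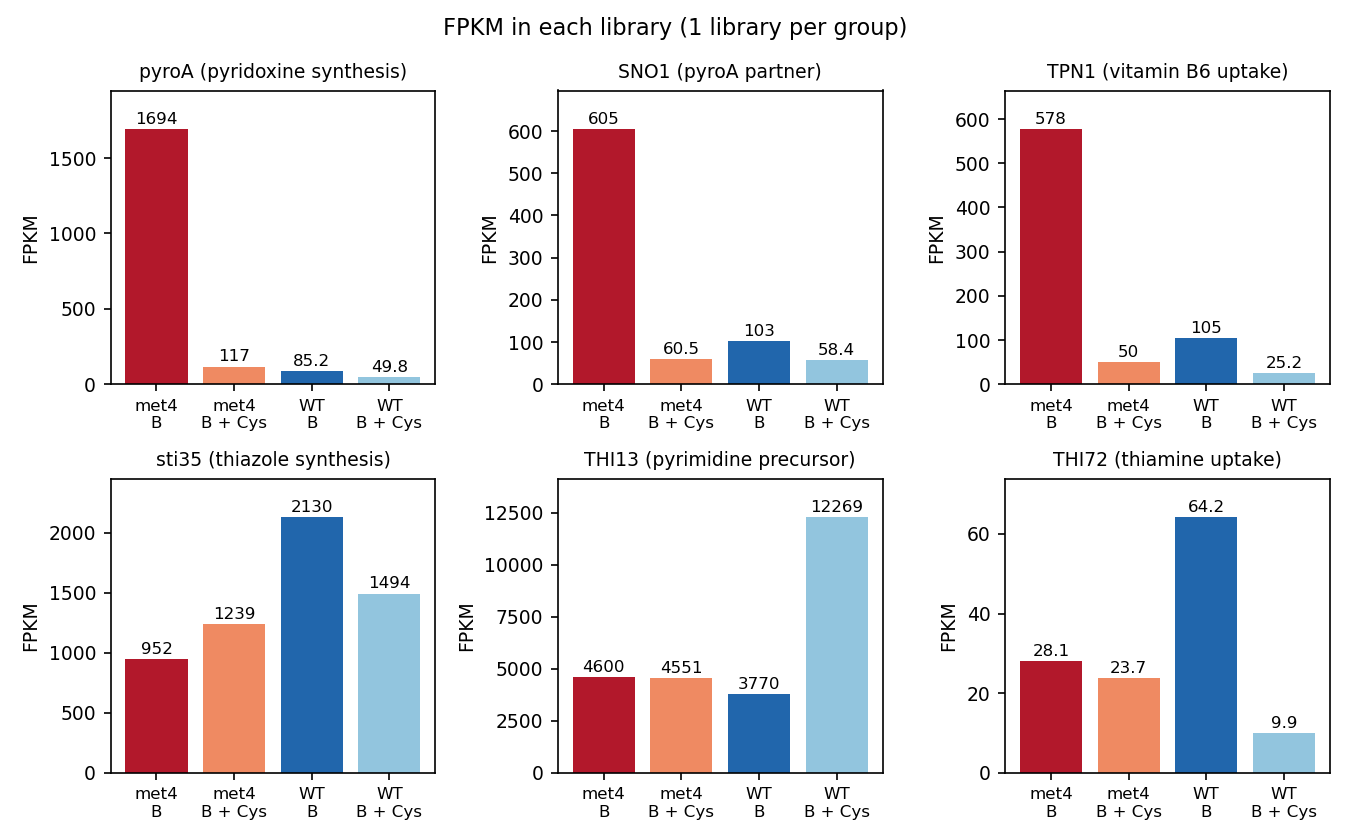
FPKM (vertical axis, linear from 0, scaled to each gene) of pyroA, sti35 and THI72 and of SNO1, TPN1 and THI13 in the 4 libraries, 1 bar per library, with the met4 mutant left of the wild type. pyroA, SNO1 and TPN1 are highest in the mutant in B medium (1694, 605 and 578 FPKM), sti35 and THI72 in the wild type in B medium, and THI13 in the wild type with cysteine.

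The row next to pyroA on chromosome V is SNO1 (HPODL_04093, 587438 to 588190), described as a probable glutamine amidotransferase and named for the glutaminase partner of the synthase. The 2 rows point away from each other, with 178 bases between their annotated starts. Budding yeast has the same head-to-head arrangement of SNZ1 and SNO1. SNO1 had 605 and 60.5 FPKM in the mutant (B medium and B with cysteine) and 103 and 58.4 FPKM in the wild type. It too was highest in the mutant in B medium, with differences between the media of 3.30 in the mutant and 0.81 in the wild type. Between the strains it stood 2.54 higher in the mutant in B medium and at 0.05 with cysteine. The ratio of pyroA to SNO1 within a library does not depend on how libraries are scaled. It was 2.80 and 1.94 in the mutant (B medium and B with cysteine) and 0.825 and 0.853 in the wild type. So pyroA was above SNO1 per length in both mutant libraries and below it in both wild-type libraries.

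The other neighbours of pyroA did not show its pattern to the same extent. TYS1, the cytosolic tyrosyl-tRNA synthetase on the far side of SNO1, had 366 and 105 FPKM in the mutant and 220.1 and 177 FPKM in the wild type, a difference between the media of 1.79 in the mutant and 0.31 in the wild type. The row YJ24_YEAST, an uncharacterized vacuolar membrane protein, ends 16 bases from the end of pyroA on the opposite strand. It had 49.9 and 89.2 FPKM in the mutant and 56.9 and 28.7 FPKM in the wild type. It was thus not high in the library where pyroA was. The sources used here do not say whether the counting used strand, so reads of overlapping transcript ends cannot be told apart. PUT3, YPP1 and ulp1, further out, differed between the media of either strain by between -0.06 and 0.87.

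**Figure D2:**
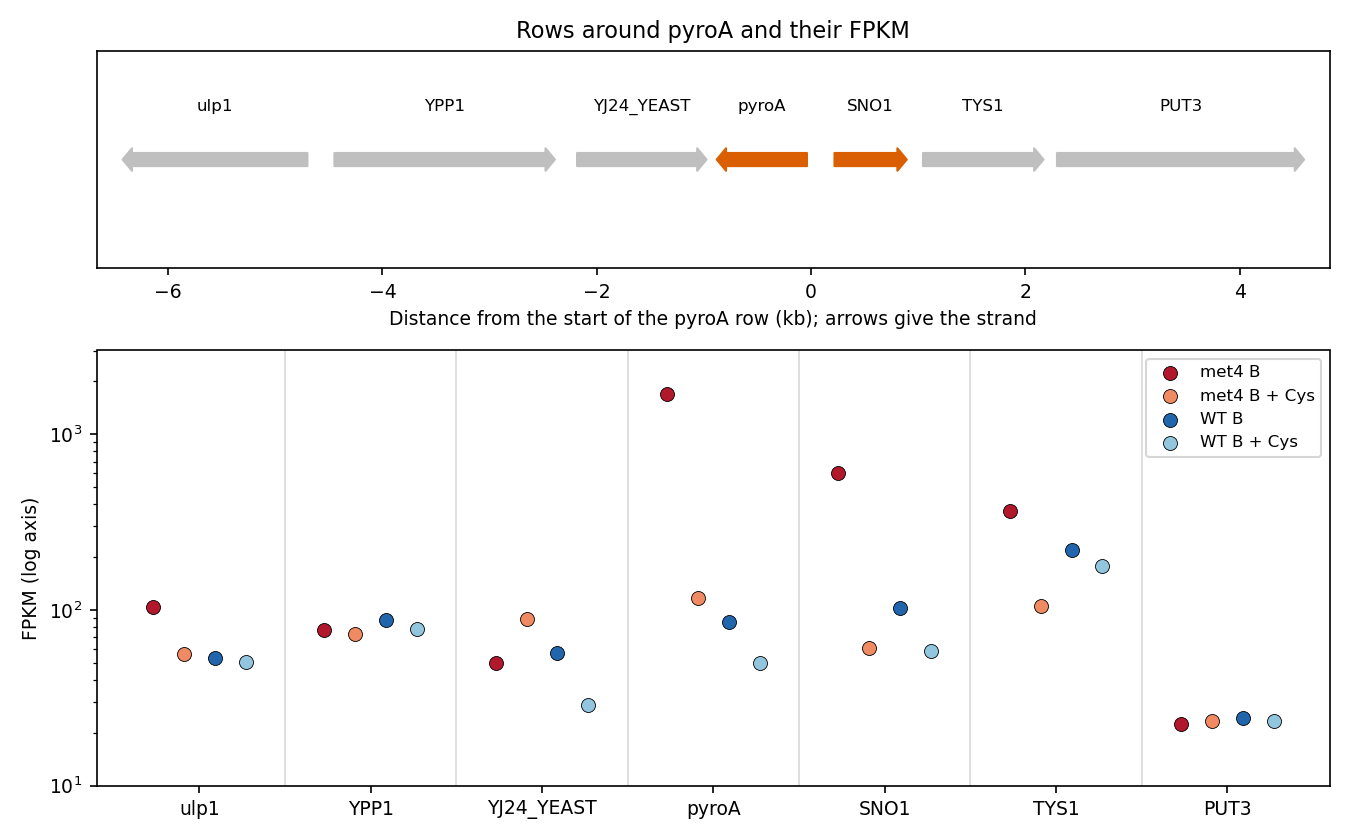
Upper panel, the pyroA row and the 3 rows on either side drawn to scale (horizontal axis, distance from the start of pyroA in kb), with arrows for the strand. Lower panel, their FPKM in each library on a log axis, where pyroA (1694 FPKM) and SNO1 (605 FPKM) stand far higher in the met4 mutant in B medium than in the other 3 libraries.

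Uptake of vitamin B6 had the same order of media as its synthesis. TPN1 (HPODL_00729, chromosome III, 1007058 to 1008611), the plasma membrane transporter of vitamin B6 in budding yeast, had 578 and 50.0 FPKM in the mutant and 105 and 25.2 FPKM in the wild type. B medium was the higher in both strains, by 3.51 in the mutant and 2.01 in the wild type. The mutant was the higher in both media, by 2.45 in B medium and 0.96 with cysteine. TPN1 is also the only one of the 18 rows marked as different in the authors' deposited table, in the pairing of the mutant in B medium with the wild type with cysteine, where 0.239% of all rows are marked. The share was 0.239% also for the strains in B medium, 1.05% for the strains with cysteine and 0.202% for the mutant with cysteine against the wild type in B medium. That pairing of TPN1 changes both strain and medium. None of the 3 members is marked in any of the 4 pairings of the authors' deposited table, whose header gives a threshold of 0.05 and does not name the test. Each of the 4 pairings sets the wild type against the mutant, so a difference between the media within a strain could not be marked.

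Among the salvage enzymes of vitamin B6, none was highest in the mutant in B medium. BUD16 (HPODL_05204), a putative pyridoxal kinase, had 13.8 and 4.84 FPKM in the mutant and 110.3 and 8.97 FPKM in the wild type. It was therefore highest in wild-type cells without cysteine, and its differences between the media were 1.34 in the mutant and 3.48 in the wild type. The strain difference in B medium was -2.91. The ratio of pyroA to BUD16 was 123 and 24.3 in the mutant (B medium and B with cysteine) and 0.772 and 5.56 in the wild type. The pyridoxal reductase plr1 was low in 1 library, the wild type in B medium, with 77.6 and 80.3 FPKM in the mutant and 17.9 and 73.7 FPKM in the wild type. Its differences were -0.05 between the media in the mutant, -1.99 in the wild type and 2.06 between the strains in B medium.

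The oxidase PDX3, which converts pyridoxine phosphate and pyridoxamine phosphate to the active cofactor, was nearly level, with 364 and 404 FPKM in the mutant and 487 and 446 FPKM in the wild type. Its homolog HPODL_01181 had 233 and 342 FPKM in the mutant and 265 and 335 FPKM in the wild type. A second putative kinase, BUD17, had 37.8 and 67.6 FPKM in the mutant and 90.1 and 87.3 FPKM in the wild type. The putative pyridoxal reductase HPODL_04908 had 40.1 and 52.2 FPKM in the mutant and 75.4 and 43.2 FPKM in the wild type. PDX3, HPODL_01181, BUD17 and HPODL_04908 were all lowest in the mutant in B medium, the library in which pyroA, SNO1 and TPN1 were highest. In the mutant, 4 of the 9 vitamin B6 rows passed 2-fold upward in B medium (against 13.3% of all rows) and 0 passed it downward (against 12.1%). The 4 include pyroA, which was chosen with its values known. The median was -0.05, against 0.04 over all compared rows. In the wild type 2 were higher (BUD16 and TPN1, against 23.6% of all rows) and 1 lower (plr1, against 13%). The median there, 0.76, is the value of pyroA itself. Between the strains in B medium 4 were higher in the mutant (pyroA, SNO1, TPN1 and plr1, against 10.5% of all rows) and 2 lower (BUD16 and BUD17, against 24.9% of all rows). With TPM scaling BUD17 stood at -0.06 there, and with a pseudocount of 5 FPKM the mutant difference of BUD16 between the media was 0.93. With cysteine pyroA passed 2-fold upward and TPN1 stood just short of it at 0.96, a value that was past 2-fold in 4 of 7 other settings (1.70 with TPM scaling).

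sti35 was among the more abundant transcripts in every library. It had 952 and 1239 FPKM in the mutant (B medium and B with cysteine) and 2129.8 and 1494 FPKM in the wild type, at percentiles between 95.4 and 97.2 of the compared rows. The 4 values span a far narrower range than those of pyroA, and the highest was the wild type in B medium. The log2 difference between the media was -0.38 in the mutant and 0.51 in the wild type, within 2-fold in both. Between the strains it was -1.16 in B medium, just past 2-fold, and -0.27 with cysteine. Relative to the median of all rows the difference in B medium was -0.89, and with TPM scaling the difference itself was 0.03. The difference of -1.16 lay at percentile 20.6 of all rows, so sti35 was not at an extreme of this comparison. Of its neighbours on chromosome IV, stcT, 170 bases downstream on the opposite strand, had between 79.0 and 121 FPKM in the 4 libraries, and SET5, 573 bases upstream, between 250.0 and 494 FPKM. The ammonium transporter MEP2, on the far side of SET5, had 187 and 87.5 FPKM in the mutant and 2835 and 155 FPKM in the wild type, and so stood above sti35 in the wild type in B medium.

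The pyrimidine branch held the most abundant row of the pathway. THI13 (HPODL_01785, chromosome VI, 1156442 to 1157473), described as a pyrimidine precursor biosynthesis enzyme, had 4600.3 and 4551 FPKM in the mutant and 3769.9 and 12269 FPKM in the wild type. Its highest value was in the wild type with cysteine. The differences between the media were 0.02 in the mutant and -1.70 in the wild type, and between the strains 0.29 in B medium and -1.43 with cysteine (1.48 and -0.63 with TPM scaling). The ratio of sti35 to THI13, the thiazole enzyme over the pyrimidine enzyme, was 0.207 and 0.272 in the mutant (B medium and B with cysteine) and 0.565 and 0.122 in the wild type. Within the wild type this ratio was 4.64 times as high in B medium as with cysteine, and within the mutant 0.760 times.

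THI20, THI6 and THI2 had lower values in B medium in both strains. THI20, the kinase that phosphorylates the pyrimidine, had 43.2 and 157 FPKM in the mutant and 61.2 and 155 FPKM in the wild type, differences of -1.84 and -1.32. THI6, which joins the pyrimidine and the thiazole, had 170 and 329 FPKM in the mutant and 162 and 271 FPKM in the wild type (-0.95 and -0.74, within 2-fold as deposited, but -1.03 and -1.21 with TPM scaling). THI2, a transcriptional activator of thiamine genes in budding yeast, had 25.0 and 44.5 FPKM in the mutant and 17.8 and 48.2 FPKM in the wild type (-0.81 and -1.39). THI80, the pyrophosphokinase that makes thiamine diphosphate, was not among them. It had 32.8 and 29.4 FPKM in the mutant and 65.3 and 30.0 FPKM in the wild type, with differences of 0.15 and 1.10 (0.61 in the wild type with TPM scaling). Over the 6 rows, 0 were at least 2-fold higher (against 13.3% of all rows) and 1 was lower (against 12.1%) in B medium in the mutant, and 1 was higher (against 23.6%) and 3 were lower (against 13%) in the wild type. The medians were -0.60 in the mutant and -1.03 in the wild type, against 0.04 and 0.19 over all rows. Between the strains, 1 of the 6 rows was at least 2-fold lower in the mutant in B medium (sti35, against 24.9% of all rows). With cysteine 1 was lower too (THI13, against 7.41%).

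**Figure D3:**
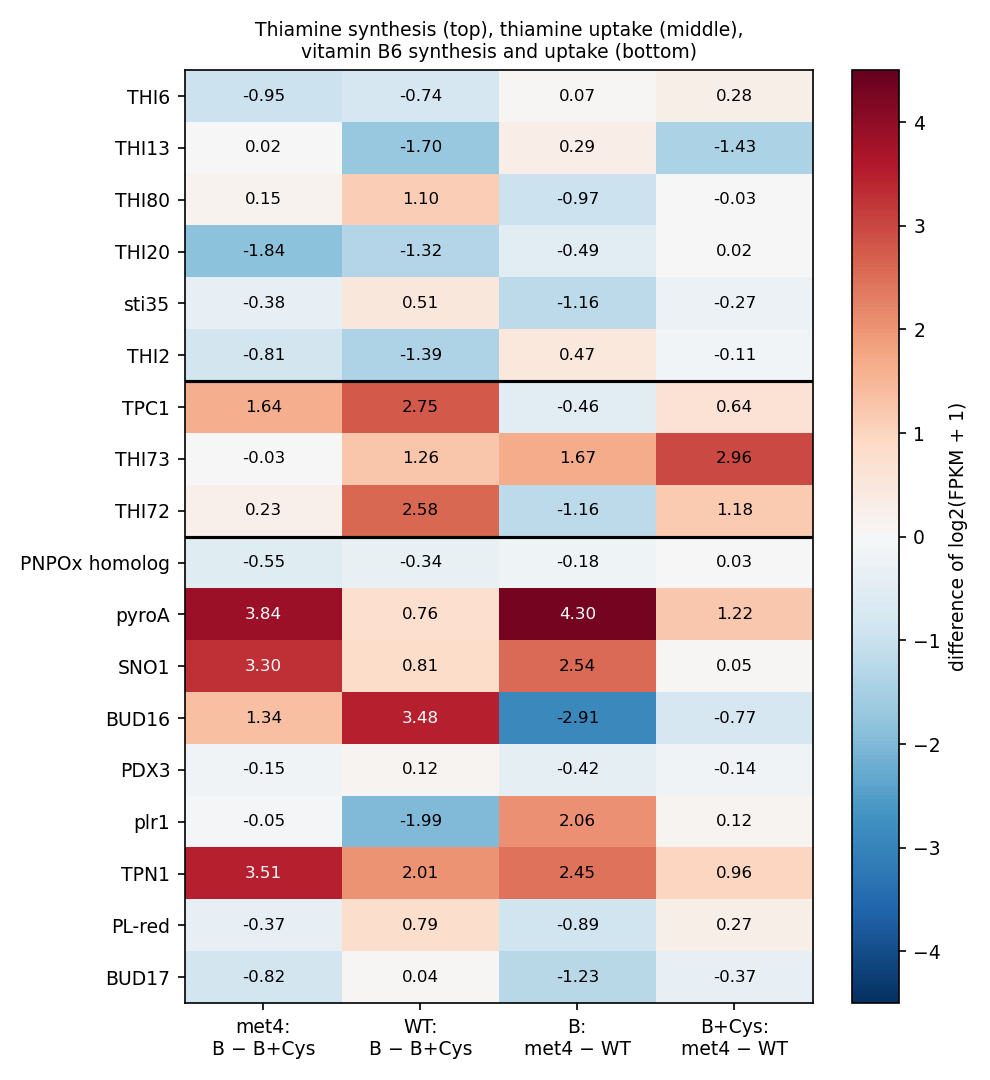
Differences of log2(FPKM + 1) for the 18 pathway rows (rows, in 3 blocks) in the 4 comparisons of libraries (columns), red for positive and blue for negative. The 3 deepest positive cells of the first column are pyroA (3.84), TPN1 (3.51) and SNO1 (3.30), while the thiamine synthesis block is mostly at or below 0 in the first 2 columns.

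THI72 was a row of low level, and its highest and lowest values were both in the wild type. It had 28.1 and 23.7 FPKM in the mutant (B medium and B with cysteine) and 64.2 and 9.90 FPKM in the wild type. The mutant values lie close together, between those of the wild type. In level, THI72 stood at percentile 24.2 and 20.5 in the mutant and at 43.5 and 8.03 in the wild type. The difference between the media was 0.23 in the mutant and 2.58 in the wild type, where the FPKM in B medium was 6.48 times that with cysteine. The wild-type value lay at percentile 95.04 of all rows, in a comparison in which 23.6% of rows were at least 2-fold higher. The response of the mutant minus that of the wild type was -2.35, where 22.2% of rows were at least 2-fold lower. Between the strains the sign depended on the medium, with -1.16 in B medium and 1.18 with cysteine. With TPM scaling the first of these was 2.14e-06 and the second 1.84. Relative to the median of all rows they were -0.89 and 1.29 as deposited, and -0.87 and 1.18 with TPM scaling. The THI72 row overlaps by 8 bases with a hyuA row on the opposite strand (HPODL_04536), which had between 10.1 and 18.3 FPKM in the 4 libraries, so part of the THI72 signal near that end cannot be told apart from it.

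The other thiamine transport rows were also higher in B medium in the wild type. TPC1 (HPODL_01531), the mitochondrial carrier of thiamine pyrophosphate, had 41.6 and 12.6 FPKM in the mutant and 57.7 and 7.74 FPKM in the wild type (differences of 1.64 and 2.75). THI73 (HPODL_00904), named after a putative permease of the thiamine pathway in budding yeast, had 17.2 and 17.6 FPKM in the mutant and 4.74 and 1.40 FPKM in the wild type (-0.03 and 1.26, the second being 0.62 with TPM scaling). It was higher in the mutant in both media, by 1.67 in B medium and 2.96 with cysteine. In the wild type all 3 transport rows, THI72 among them, passed 2-fold upward in B medium, where 23.6% of all rows did. THI72 was chosen with its values known, and the list median of 2.58 is its own value (0.19 over all rows). In the mutant TPC1 was the only one, against 13.3% of all rows, and the list median of 0.23 is again the value of THI72. Subtracting the wild type's response from the mutant's gave -1.10 or less for all 3, where 22.2% of all rows were at least 2-fold lower. That last difference was within 2-fold in 6 of 7 other settings for TPC1 and in 2 of 7 for THI73, with values nearest to 0 of -0.58 and -0.63.

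**Figure D4:**
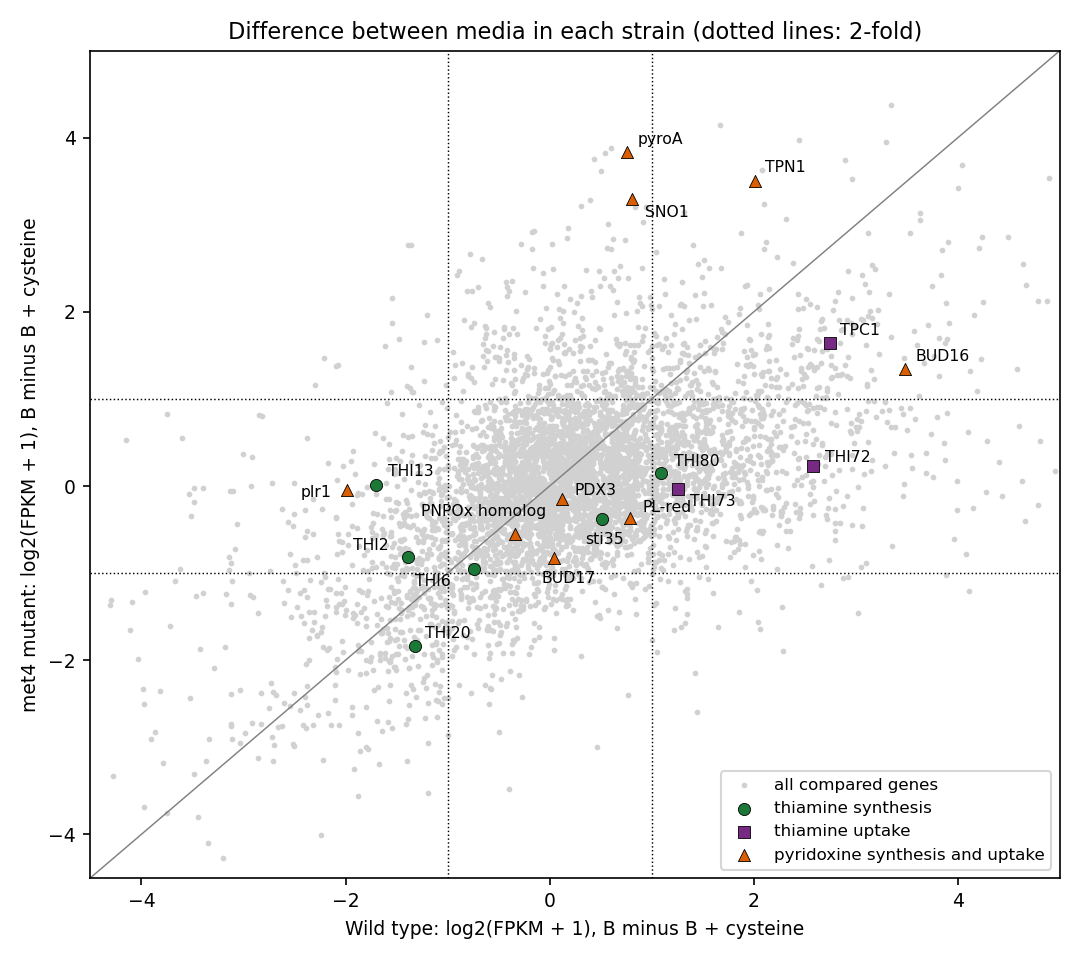
Difference of log2(FPKM + 1) between B medium and B with cysteine in the met4 mutant (vertical axis) and the wild type (horizontal axis), for all compared rows (grey, 60 of them outside the axes) and the 18 pathway rows (colours), with dotted lines at 2-fold and a solid line of equal differences. pyroA, SNO1 and TPN1 lie above the line (3.84, 3.30 and 3.51 in the mutant), THI72 and BUD16 below it (0.23 and 1.34 in the mutant, 2.58 and 3.48 in the wild type).

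The 3 members did not share a pattern over the libraries. Likeness was measured as the Euclidean distance between log2(FPKM + 1) values, each minus its own mean over the 4 libraries, among 5288 other rows with a mean of at least 5 FPKM. By that measure pyroA lay at 4.58 from sti35 and 3.96 from THI72, and sti35 at 1.69 from THI72, while pyroA lay at 1.39 from TPN1 and 1.51 from SNO1. The 5 nearest described rows to pyroA were ICL1 (isocitrate lyase, 1.25), AGP2 (an amino acid permease, 1.28), TPN1, SNO1 and PCK1 (phosphoenolpyruvate carboxykinase, 1.56). In place by distance to pyroA, counting rows without a described product, TPN1 was 6th, SNO1 7th, THI72 2125th and sti35 3909th. By distance to sti35, THI72 was 3939th. The distance was not scaled to the spread of a row, so it is small between rows that vary little. PCK1 had 1370 and 110 FPKM in the mutant and 280.0 and 65.4 FPKM in the wild type, and ICL1 106 and 24.2 FPKM in the mutant and 9.85 and 4.46 FPKM in the wild type.

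The rows nearest to sti35 were much closer, between 0.066 and 0.121, and none was of thiamine metabolism. They were RAD9 (DNA repair), SEH1 (a nucleoporin), SCP1 (transgelin), AEP3 (named for the expression of mitochondrial ATPase) and MAK3 (an N-terminal acetyltransferase). Those nearest to THI72 were MSC2 (a probable zinc transporter, 0.24), sre1 (elongation of fatty acids, 0.32), LCL3 (a probable endonuclease, 0.34), CLN3 (a cyclin of the start of the cell cycle, 0.34) and MSB2 (a signaling mucin, 0.34). MSC2 had 22.5 and 17.7 FPKM in the mutant and 44.9 and 6.09 FPKM in the wild type. With 4 values per row, many rows share such a profile, and nearness is given as a description only. Next to THI72 on chromosome II, the dicarboxylic amino acid permease row DIP5 (HPODL_04534), 1608 bases away on the opposite strand, had 13.0 and 15.7 FPKM in the mutant and 223 and 25.7 FPKM in the wild type. Like THI72 it was highest in the wild type in B medium (3.07 between the media), but unlike THI72 its lowest value was in the mutant. On the other side bglM and DAK were highest in the mutant in B medium, with 10.03 and 9.98 FPKM, against 1.63 and 1.38 FPKM in the wild type there.

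Enzymes that depend on the 2 cofactors were set beside the members. In the mutant, 13 of 36 rows for enzymes that use pyridoxal phosphate passed 2-fold upward in B medium (against 13.3% of all rows) and 5 passed it downward (against 12.1%), with a median of 0.57. In the wild type 3 were higher (against 23.6%) and 6 lower (against 13%), with a median of -0.07. Between the strains in B medium 13 were higher (against 10.5%) and 5 lower (against 24.9%) in the mutant, with a median of 0.58 against -0.27 over all rows, and with cysteine 1 was higher (against 6.85%) and 4 lower (against 7.41%), with a median of -0.25. The largest differences between the media in the mutant were those of HPODL_04757, an uncharacterized aminotransferase (784 and 83.8 FPKM, 3.21), HIS5 of histidine synthesis (452 and 67.6 FPKM, 2.72), ARO8 of aromatic amino acid synthesis (401 and 75.7 FPKM, 2.39) and, in the other direction, HEM1 of heme synthesis (152 and 1139.5 FPKM, -2.90). HEM1 was low in B medium in the wild type too (-3.12). Much of this list is amino acid synthesis, so its counts overlap with those of that group of genes.

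Of 10 rows for enzymes that use thiamine diphosphate, 2 were at least 2-fold higher and 1 lower in B medium in the mutant, and 2 were higher and 2 lower in the wild type. Over all rows the shares were 13.3% and 12.1% in the mutant and 23.6% and 13% in the wild type. These counts between the media were therefore near the background. Between the strains in B medium, 4 were higher in the mutant (ILV2, ARO10, DAS and PDC6, against 10.5% of all rows) and 0 lower (against 24.9%). With cysteine 3 were higher (ARO10, DAS and PDC6, against 6.85%) and 0 lower (against 7.41%). The list medians were 0.455 and 0.197, against -0.272 and -0.103 over all rows. The largest of these strain differences were those of PDC6, a pyruvate decarboxylase isozyme (2.21 and 3.03). They rest on low values, with 36.4 and 21.1 FPKM in the mutant and 7.06 and 1.70 FPKM in the wild type. ILV2, the acetolactate synthase of branched-chain amino acid synthesis, had 563 and 173 FPKM in the mutant and 242 and 225 FPKM in the wild type, so its highest value was in the same library as that of pyroA. KGD1 of the tricarboxylic acid cycle had 235 and 72.7 FPKM in the mutant and 352 and 89.8 FPKM in the wild type (1.68 and 1.96). The main pyruvate decarboxylase row (PDC) had 6275 and 12174 FPKM in the mutant and 3779.6 and 9879 FPKM in the wild type (-0.96 and -1.39). Dihydroxyacetone synthase, the peroxisomal enzyme that fixes formaldehyde in methylotrophic yeasts, has a row DAS with 50.1 and 85.05 FPKM in the mutant and 11.5 and 22.2 FPKM in the wild type. DAS was higher in the mutant in both media, by 2.03 and 1.89. A second row of that product, DAS1, had 18.2 and 46.2 FPKM in the mutant and 18.1 and 42.1 FPKM in the wild type, and so did not share this difference. The 2 rows may share reads.

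Among 41 rows for other vitamins and cofactors, 6 were at least 2-fold higher and 3 lower in B medium in the mutant, where 13.3% and 12.1% of all rows were, and 9 were higher and 5 lower in the wild type, where 23.6% and 13% of all rows were. These counts were near the background, and the median in the mutant was 0.04, as over all rows. PAN6 of pantothenate synthesis (317 and 61.2 FPKM, 2.36), the vitamin H transporter vht1 (195 and 63.3 FPKM, 1.61) and NPT1, which recycles nicotinic acid into NAD (939 and 320.1 FPKM, 1.55), were on the high side. None of them reached the difference of pyroA, SNO1 or TPN1. In the wild type the same 3 rows had 84.7 and 110 FPKM (PAN6, -0.37), 81.1 and 61.6 FPKM (vht1, 0.39) and 249 and 379 FPKM (NPT1, -0.60). RIB4 of riboflavin synthesis was low in the mutant in B medium, with 52.7 and 207 FPKM in the mutant and 255 and 205 FPKM in the wild type.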

How the data were processed

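RNA of 4 cultures was sequenced after hot phenol extraction and standard Illumina library preparation, per the labels' protocols. The deposited table gives 1 FPKM value per row and library, made by the authors. The submitters' processing notes name TopHat, Cuffdiff and Cufflinks 2.1.1 without roles. The sources used here give no genome build, annotation release or strand setting. FPKM does not record the number of reads, so depth and counting error are unknown. The authors' yes or no marks per pairing were read as deposited, per the file headers at 0.05.

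Groups came from the sample titles and columns from the sample descriptions. Values were not rescaled. Differences of log2(FPKM + 1) were computed for rows with a mean of at least 1 FPKM (Python 3.11.15, pandas 2.3.3), with a mark at 2-fold and no test. The computation was tested on simulated data. The 6 gene lists were matched by name or product, and 8 rows that only share a name or word (such as PDX1, protein X of pyruvate dehydrogenase) were left out after the match. The members and lists were chosen with earlier results of these data known. Named were the members, all rows of the 3 short lists, the 3 rows on each side of each member, the 5 nearest described rows by profile, and up to 4 rows with the largest difference in each other list and comparison. Which of these last are printed, and their values in further comparisons, was chosen after the values were seen. Alternatives were other pseudocounts (0.1 and 5 FPKM), other filters (none, or a mean of 10 FPKM) and 4 scalings. In a further one, a running median by gene length was subtracted, which also removes the median difference of all rows.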

Additional observations from a re-analysis of the deposited data

Results flagged for a closer look

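Differences past 2-fold in opposite directions in the 2 media or the 2 strains were found for 4 pathway or cofactor rows. Each rests on 1 library per group, and the difference between them was not tested. Only rows of the 6 gene lists were searched, and the share over all compared rows was not computed. For THI72 the difference between mutant and wild type was -1.16 in B medium and 1.18 with cysteine. The first was within 2-fold in 4 of 7 other settings and the second in 1 of 7. For the aminotransferase row HPODL_04757 (YHKC_SCHPO) the strain difference was 1.16 in B medium and -1.11 with cysteine. Both values are close to the 2-fold mark, and TPM scaling moved the medians of all rows in these comparisons by 1.14 and 0.76. For the liz1 row HPODL_05053, named for a pantothenate transporter, the strain difference was -5.24 in B medium and 3.01 with cysteine. This row had 27.6 and 12.4 FPKM in the mutant and 1077 and 0.673 FPKM in the wild type. The 3.01 thus rests on a wild-type value below the pseudocount of 1 FPKM. Its differences between the media were 1.09 in the mutant and 9.33 in the wild type. For the aminotransferase row HPODL_00051 (YGD3_SCHPO) the strain difference was -1.58 in B medium and 2.59 with cysteine. The difference between the media was -1.89 in the mutant and 2.28 in the wild type for that row.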

How the results depend on the processing

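Of 105 member differences under 7 alternatives, 94 kept their sign and their side of the 2-fold mark. All of pyroA's did. In B medium the strain difference of sti35 was -0.90 with median-of-ratios, -0.86 with upper-quartile and -0.93 with long-gene scaling (rows from 600 bases up). It was -0.89 after the running median by length was subtracted and 0.0304 with TPM scaling. That of THI72 was -0.91, -0.87 and -0.94 with the first 3 scalings and 2.14e-06 with TPM scaling. With cysteine, sti35 stood at 0.53 with TPM scaling and THI72 at 0.95 with a pseudocount of 5 FPKM. Relative to the median of all rows, sti35 stood at -0.89 in B medium with no length correction. The -0.89 after the running median is thus largely recentring. With TPM scaling the relative values in B medium were -0.84 (sti35) and -0.87 (THI72). TPM scaling changed the counts of rows at least 2-fold higher and lower to 753 and 1125 between the media in the wild type (1259 and 692 as deposited). Between the strains it gave 2369 and 336 in B medium (562 and 1332 as deposited), and 1478 and 118 with cysteine (366 and 396 as deposited). For the difference of responses it gave 996 and 671 (599 and 1186 as deposited). Upper-quartile scaling gave 853 rows higher in the mutant in B medium. Subtracting the running median by length, which also recentres all rows, gave 854 rows lower in B medium and 192 lower with cysteine. The cause of these shifts was not tested, beyond the unequal sums of FPKM given above. Of 300 list medians, 260 kept their sign and side and 31 changed sign, 11 of them with TPM scaling, all at values within 2-fold. The thiamine synthesis median between the strains in B medium, for one, was 0.95 with TPM scaling and -0.21 as deposited. For the 3 cofactor lists the settings were added after seeing the data. Between the strains in B medium, TPM scaling gave medians of 1.75 for enzymes of pyridoxal phosphate, 1.64 for those of thiamine diphosphate and 1.10 for other vitamins. As deposited these were 0.58, 0.455 and 0.02. The median of all rows was -0.27 as deposited, and TPM scaling moved it up by 1.14, so all these list medians carry that shift. Keeping in the rows that only share a name, an alternative chosen after seeing the data, gave -0.74 for thiamine synthesis in the wild type (-1.03 without them). No paired analysis was possible because each group has 1 library and the labels give no replicate numbers. Depth is unknown, which limits the low rows most, among them THI72, THI73, BUD16 and PDC6.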
